A study of Mus musculus with 6 samples.

Results

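The 10 genes described here encode the exchangeable subunits of the BAF chromatin-remodelling complex: Actl6a and Actl6b, Ss18 and Ss18l1, Phf10, Dpf1, Dpf2 and Dpf3, and the ATPases Smarca4 and Smarca2. They were chosen by name from 21910 genes, and their unique molecular identifier (UMI) counts were read in every library and cell class of mouse neural tube organoids. The organoids were grown from a mouse embryonic stem cell line carrying the reporters Sox1::eGFP;Bra::mCherry in all groups, in Matrigel drops in N2B27 medium, to which bFGF and activin-A were added for the first 3 days only. After day 6 they were freed from the gel and embedded again for maturation. The groups were non-elongated organoids at day 6 (1 library), elongated organoids at day 6 (2 libraries, titled batch 1 and batch 2, called replicates 1 and 2 here), and elongated organoids at day 7, day 8 and day 10 (1 library each). Each condition pooled 100 organoids of 1 cell line before 10x Genomics 3′ sequencing, so differences between single organoids are not seen.

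BAF complexes use the energy of ATP to move nucleosomes, and several of their positions are filled by 1 of several related proteins. In dividing neural progenitors the actin-related position holds ACTL6A, the position of the double-PHD-finger proteins holds PHF10 or DPF2, and the SS18 position holds SS18. When cells leave the cell cycle and become neurons these are known to give way to ACTL6B, to DPF1 or DPF3, and to SS18L1, also called CREST, a calcium-responsive coactivator needed for dendrite growth. SMARCA4 and SMARCA2 are the alternative ATPases. The passage from ACTL6A to ACTL6B is known to involve microRNAs, among them the passenger strand of miR-9, which act on the 3′ untranslated region (UTR) of Actl6a, and the repressor REST, which binds the RE1 element and holds neuronal genes silent outside neurons.

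The sequences behind that background are shown for the Actl6 pair, since Actl6b differed most between progenitors and neurons and Actl6a is its counterpart. The first is the mature microRNA from RefSeq, with its seed (bases 2 to 8) in capitals. The second is the only match to that seed (AGCTTTA, transcript strand) in the 374-base 3′ UTR of Actl6a, in capitals, at chr3:32726629-32726657 on the plus strand of GRCm38, in the last exon of the GENCODE transcript. The third lies in the first exon of Actl6b, at chr5:137553565-137553592 on the plus strand of GRCm38. Its capitals start 51 bases past the GENCODE gene start. It was read from the RefSeq promoter window, with letters of both parts of an RE1 element in capitals (GGACAG and CAGCACC, here on the opposite strand).
mmu-miR-9-3p: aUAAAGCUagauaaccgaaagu
Actl6a 3′ UTR: tcaacgtctgtAGCTTTAgtacactcagg
Actl6b first exon: gagCTGTCCggccgcctcGGTGCTGatc

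The seed match was found once in Actl6a and once in the 955-base 3′ UTR of Smarca2, and in none of the other 8 members. It occurs in 2.39% of 1796 mouse 3′ UTRs within 20% of the length of that of Actl6a, in 7.27% of those of the length of that of Smarca2, and in 11.3% of 20962 3′ UTRs of any length. Both RE1 parts, at most 10 bases apart and on either strand, were searched in RefSeq promoter windows. These run from 250 bases before to 50 bases after the RefSeq start, which can differ from the GENCODE gene start. The window of Actl6b is chr5:137553296-137553595. Both parts were found in 36 of 32851 windows (0.110%) and in 1 of 9 members searched, Actl6b, where the gap is 9 bases. That gap lies just inside the limit of 10 bases. Windows were not counted by the size of the gap, so the share does not describe a fixed spacing. CAGCACC alone was found in 7.14% of windows and in the same single member. These letters were chosen after the sequence had been read, and a match is a description of the sequence, not evidence of binding. Windows on chromosome 18, where Ss18 lies, were left out of this search and of the 32851. The 9 members searched are therefore all but Ss18.

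By GENCODE M21 on GRCm38, Actl6a lies at chr3:32706298-32726973 and Actl6b at chr5:137553517-137569582, both on the plus strand. Ss18 is on chromosome 18 and Ss18l1 on chromosome 2. Dpf1 is on chromosome 7, Dpf3 on chromosome 12, Phf10 on chromosome 17, Smarca4 on chromosome 9, and Dpf2 and Smarca2 both on chromosome 19. An exon of another gene on the opposite strand overlaps Actl6a (Mrpl47), Phf10 (1600012H06Rik), Dpf2 (Gm42067), Dpf1 (Gm44632) and Smarca2 (4931403E22Rik), and an exon of Gm27373 overlaps Smarca4 on the same strand. How the counting treated strand and overlap is not given in the sources used here, so reads of these pairs may not be told apart.

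The 6 libraries held 2076 to 3677 cells, 74072752 to 152742819 UMIs and median depths of 22053 to 59014 UMIs per cell, the lowest at day 10. The non-elongated library and elongated day 6 replicate 1 came in 1 count table, and the other 4 libraries in another with its own cell classes. Actl6b was not among the 18144 genes of the first table, so its values start with elongated day 6 replicate 2. The cell classes were those the authors deposited. Neurons were the classes dorsal interneuron 1 to 3 (dI1, dI2, dI3). Progenitors were hindbrain, midbrain, mid/hindbrain, spinal cord, dorsal progenitor 1 (dP1), dorsal progenitor 2/3 (dP2/3) and proliferative neural progenitor. Neurons numbered 0 in each day 6 library, 15 at day 7, 272 (8.15%) at day 8 and 1176 (32.0%) at day 10. The summed level of 11 neuron markers (such as Tubb3, Dcx and Elavl3) was 10059 CPM (UMIs of a gene scaled to the library's or class's total) in the neuron classes at day 8 and 10957 at day 10, against 409 and 1182 in progenitors, and 8 proliferation markers summed to 173 and 100.4 CPM in neurons against 2370 and 2068 in progenitors. Pairs of libraries shared at most 4 cell barcodes.

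In the library sums over all cells, 4 of the 9 testable members rose between elongated day 6 and day 10 (Dpf3, Dpf1, Ss18l1 and Smarca2) and 1 fell (Phf10). The remaining 4, Actl6a, Dpf2, Ss18 and Smarca4, did not pass the test. Over all 16379 genes tested, 26.4% were called in this contrast, 14.1% higher and 12.3% lower. The median log2 difference was 0.42 over the 9 members and -0.01 over all genes. Each value below is a level in CPM after scaling by trimmed mean of M values (TMM), and a call is an adjusted p under 0.05 by edgeR's quasi-likelihood test. Only the elongated day 6 group has 2 libraries, and these differ in batch and in count table as well, so the p-values rest on the spread of that 1 pair, with 1 residual degree of freedom before moderation across genes. In these sums fewer cells of a type and less RNA per cell cannot be told apart, and the share of neuron cells went from 0% to 32.0% over the same libraries.

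Among the subunits of neurons, Dpf3, a reader of modified histones also known from heart and muscle, stood at 0.462 CPM in the non-elongated library, 0.370 and 0.793 in elongated day 6 replicates 1 and 2, 3.76 at day 7, 5.50 at day 8 and 8.23 at day 10. Every later library was above every day 6 library. Against the mean of the day 6 pair the log2 difference was 2.67 at day 7 (SE 0.50, adjusted p = 0.0304), 3.22 at day 8 (SE 0.50, adjusted p = 0.0066) and 3.80 at day 10 (SE 0.50, adjusted p = 0.0021), the last a 14.2-fold higher level. Dpf3 was the only member called at day 7, where 3.99% of all genes were called, 1.9% in the higher direction. The day 6 pair itself was 1.06 apart in log2 for Dpf3, more than for any other member. With genes of fewer than 100 counts filtered out, the day 7 call was lost (adjusted p = 0.061).

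Dpf1, the family member with expression mainly in neurons, stood at 2.86 CPM in the non-elongated library, 3.07 and 2.88 in the elongated day 6 pair, 4.71 at day 7, 8.34 at day 8 and 12.1 at day 10. The 3 day 6 libraries lay within a narrow band and each later library was higher than the one before it. The log2 difference from day 6 was 1.49 at day 8 (SE 0.33, adjusted p = 0.0260) and 2.02 at day 10 (SE 0.33, adjusted p = 0.0049). At day 8, 13.4% of all genes were called, 6.74% higher and 6.64% lower, and Dpf1 and Dpf3 were the 2 members called.

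Ss18l1 stood at 2.38 CPM in the non-elongated library, 2.49 and 3.41 in the elongated day 6 pair, 3.58 at day 7, 4.30 at day 8 and 7.99 at day 10. Only the day 10 library lay clear of the rest. The log2 difference at day 10 was 1.43 (SE 0.38, adjusted p = 0.0307 by edgeR), and DESeq2 put the same contrast just outside the threshold (adjusted p = 0.0503). Smarca2, the ATPase linked to slowly dividing and differentiated cells, stood at 10.4 CPM in the non-elongated library, 11.5 and 16.2 in the elongated day 6 pair, 20.1 at day 7, 21.4 at day 8 and 35.2 at day 10. Its log2 difference at day 10 was 1.35 (SE 0.33, adjusted p = 0.0219). The elongated day 6 pair differed by 0.49 in log2 for Smarca2 and by 0.45 for Ss18l1, with replicate 2 the higher in both.

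Actl6b, the neuronal actin-related subunit, could be followed only in the second table. It had 9 UMIs in elongated day 6 replicate 2, 31 at day 7, 329 at day 8 and 1826 at day 10, which is 0.0589, 0.232, 2.84 and 20.3 CPM without TMM scaling. A line over day through these 4 libraries gave a slope of 2.06 log2 units per day (SE 0.26, adjusted p = 0.0365). In that fit 10.3% of 16809 genes were called, 4.73% with a positive and 5.56% with a negative slope, and 4 of the 10 members, with Dpf1 and Smarca2 also rising and Phf10 falling. Leaving out any of the 4 libraries ended the call for Actl6b, with slopes of 1.87 without day 6, 1.94 without day 7, 2.05 without day 8 and 2.77 without day 10 and adjusted p of 0.067 to 0.112. Only 33 genes were called without the day 6 library and 0 without each of the others, where 4188 to 4443 genes had an unadjusted p under 0.05.

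Among the subunits of progenitors, Phf10, a component of the polybromo form of the complex that favours proliferation, stood at 60.4 CPM in the non-elongated library, 66.0 and 60.7 in the elongated day 6 pair, 48.5 at day 7, 40.6 at day 8 and 31.3 at day 10. Each later library was lower than the one before it and than every day 6 library. The log2 difference at day 10 was -1.02 (SE 0.27, adjusted p = 0.0287), a 2.03-fold lower level. Under scaling by library size alone it was -0.77 and the call was lost (adjusted p = 0.070). Under that scaling the median of all genes also lay 0.24 above 0 at day 10.

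Actl6a stood at 202 CPM in the non-elongated library, 202 and 185 in the elongated day 6 pair, 176 at day 7, 194 at day 8 and 140.4 at day 10. Only day 10 was below the rest, with a log2 difference of -0.46 that did not pass the test (SE 0.26, adjusted p = 0.222). Ss18 ranged from 50.2 to 60.8 CPM up to day 8 and was 37.9 at day 10 (log2 difference -0.62, SE 0.26, adjusted p = 0.120). Dpf2, the widely expressed member of its family, ranged from 60.4 to 77.7 CPM up to day 8 and was 49.0 at day 10 (log2 difference -0.53, SE 0.27, adjusted p = 0.188). Smarca4 was 128 to 165 CPM through day 7, 201 at day 8 and 194 at day 10 (log2 difference at day 10 0.42, SE 0.27, adjusted p = 0.276). For all of these 4 genes the day 10 values lay outside the day 6 pair, but by less than the test required.

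**Figure D1:**
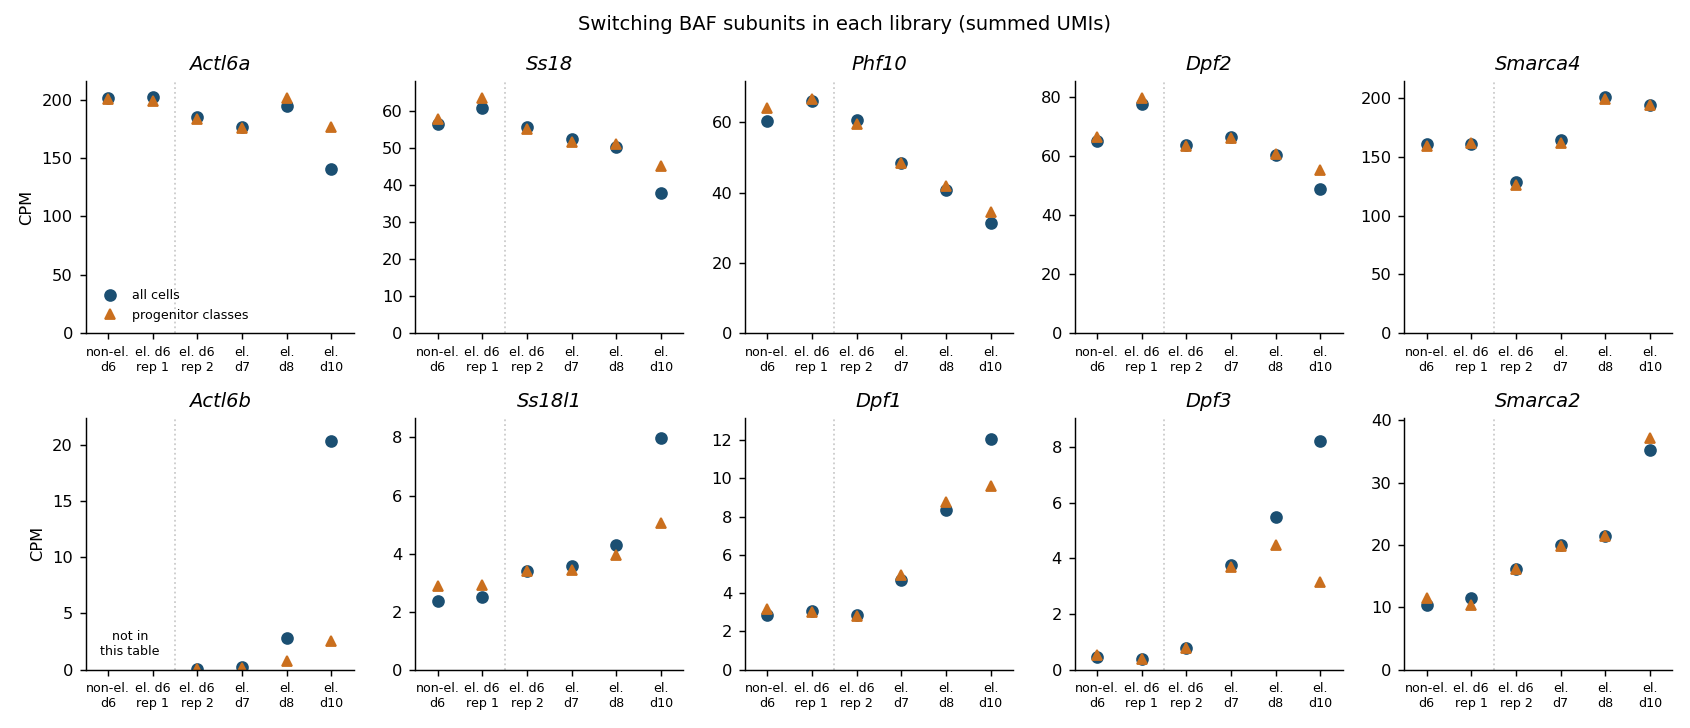
TMM-scaled level (CPM, linear axis from 0) of each member in the 6 libraries, for all cells (circles) and for the progenitor classes alone (triangles); Actl6b is shown without TMM scaling, and the dotted line separates the 2 count tables. Each point is 1 library. Dpf3 goes from 0.370 to 8.23 CPM in all cells, but its triangle at day 10 is at 3.14, while circles and triangles of Phf10 and Smarca2 stay close together in every library.

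At day 6 no member passed the test of the non-elongated library against the elongated pair. The log2 differences of the non-elongated library from the elongated pair lay between -0.41 (Smarca2, SE 0.35) and 0.16 (Smarca4, SE 0.27), and edgeR called none of the 9 members and 0 of 16379 genes (0%). DESeq2 called 127 genes in this contrast and no member, and 1137 genes had an unadjusted p under 0.05 by edgeR, none of them a member. Cell makeup differed between these libraries, with 784 of 2225 cells in progenitor classes in the non-elongated library and 1333 of 2076 in elongated replicate 1. In progenitors alone edgeR again called 0 of 15789 genes (522 with an unadjusted p under 0.05), and DESeq2 called 11.

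A straight line over day through the 5 elongated libraries gave slopes for the same 9 members. Dpf1 rose by 0.53 log2 units per day (SE 0.083, adjusted p = 0.0137), Ss18l1 by 0.35 (SE 0.079, adjusted p = 0.0298) and Smarca2 by 0.33 (SE 0.065, adjusted p = 0.0222). Phf10 fell by 0.26 log2 units per day (SE 0.043, adjusted p = 0.0152) and Ss18 fell by 0.15 (SE 0.041, adjusted p = 0.0482). That is 5 of 9 members, against 23.8% of 15775 genes called, 11.3% with a positive and 12.5% with a negative slope. Dpf3 had the steepest slope, 0.94, with a larger error (SE 0.28, adjusted p = 0.0611). With 1 library left out the Dpf3 slope lay between 0.70, without replicate 1, and 1.74, without day 10, and it was called without day 7 (adjusted p = 0.0384) and by DESeq2 (adjusted p = 0.0011). Without elongated day 6 replicate 2 no gene of 15251 was called (4852 with an unadjusted p under 0.05, among them 6 of the 9 members). The members called numbered 3 without replicate 1 (1723 of 15486 genes called) and 3 without day 8 (2324 of 15571). They numbered 4 without day 7 (2971 of 15498) and 1, Dpf1, without day 10 (1728 of 15571). The slopes of Dpf1, Phf10, Ss18l1 and Smarca2 stayed within 0.50 to 0.74, -0.33 to -0.24, 0.27 to 0.41 and 0.27 to 0.37 over these 5 fits. The call of Ss18 was lost in each of these 5 fits (adjusted p of 0.086 to 0.388), with library size alone (adjusted p = 0.184) and with no filter on low counts (adjusted p = 0.0553).

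Summing progenitor cells alone took the neuron classes out of the comparison, but the level of neuron markers was not even across days. The 11 neuron markers summed to 206 to 252 CPM in progenitors of the day 6 libraries, 223 at day 7, 409 at day 8 and 1182 at day 10. Only the first count table sets epiblast cells apart as classes of their own. In progenitors, 6 epiblast markers summed to 133 CPM in the non-elongated library and to 23.9 and 64.1 in elongated day 6 replicates 1 and 2. At day 7 their sum was 2.33 CPM, so the day 6 progenitors also differ in such cells. Dpf1, Dpf3 and Smarca2 rose in progenitors by day 10, 3 of 9 members against 17.1% of 15789 genes called (8.85% higher and 8.24% lower). Dpf1 stood at 3.19 CPM in progenitors of the non-elongated library, 3.04 and 2.80 in those of the elongated day 6 pair, 4.93 at day 7, 8.77 at day 8 and 9.61 at day 10 (log2 difference at day 10 1.72, SE 0.36, adjusted p = 0.0177). Smarca2 stood at 11.6, 10.3, 16.1, 19.9, 21.4 and 37.1 CPM in the same order (log2 difference at day 10 1.49, SE 0.35, adjusted p = 0.0274). Smarca2 was as high in day 10 progenitors as in all cells, and Dpf1 was at 9.61 CPM in progenitors against 12.1 in all cells. Without the dP1 and dP2/3 cells the day 10 log2 differences in progenitors were 1.93 for Dpf1, 2.30 for Dpf3 and 1.48 for Smarca2 (adjusted p of 0.0124, 0.0276 and 0.0306). The part of the neuron markers in these differences was otherwise not tested, and that of the epiblast markers was not tested.

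Dpf3 in progenitors stood at 0.538, 0.402, 0.768, 3.68, 4.49 and 3.14 CPM in the same order of libraries. It was higher at day 7 (log2 difference 2.61, adjusted p = 0.0490, with 2.5% of genes called, 1.34% higher and 1.17% lower), at day 8 (2.90, adjusted p = 0.0155, with 9.57% called, 4.76% higher and 4.81% lower) and at day 10 (2.39, SE 0.53, adjusted p = 0.0213). The day 7 call was lost with no filter on low counts, with a minimum count of 100 and with library size scaling (adjusted p of 0.061 to 0.067). Unlike the sum over all cells, the progenitor level at day 10 was not above that at day 8.

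Ss18l1 and Phf10, called in all cells at day 10, were not called in progenitors in the group fit. Ss18l1 stood at 5.05 CPM in day 10 progenitors against 7.99 in all cells (log2 difference from day 6 0.67, SE 0.41, adjusted p = 0.291). Phf10 stood at 34.5 CPM in day 10 progenitors against 64.0, 66.6 and 59.5 in the 3 day 6 libraries (log2 difference -0.87, SE 0.28, adjusted p = 0.0676), and DESeq2 put it past the threshold (adjusted p = 0.0403). Actl6a was 176 CPM in day 10 progenitors and 175 to 201 in the other 5 libraries (log2 difference -0.11, SE 0.26, adjusted p = 0.786). Whether the difference between all cells and progenitors was larger for one gene than another was not tested.

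The line over day within progenitors gave 2 members rising, Dpf1 by 0.47 log2 units per day (adjusted p = 0.0371) and Smarca2 by 0.36 (adjusted p = 0.0297), and Phf10 falling by 0.22 (adjusted p = 0.0306), against 18.2% of 15403 genes called, 8.02% with a positive and 10.1% with a negative slope. No member was called without elongated day 6 replicate 1, without replicate 2 or without day 8, where 0, 5 and 1170 genes were called, and 4415 to 4748 genes had an unadjusted p under 0.05. The Dpf1 slope in progenitors lay between 0.41, without replicate 2, and 0.78, without day 10. Actl6b could be fitted only over the 4 libraries of the second table, where its slope in progenitors was 1.28 (SE 0.17, adjusted p = 0.0579) and 0 of 16350 genes (0%) were called, with 5106 at an unadjusted p under 0.05. Within 1 class, mid/hindbrain, the levels from day 6 replicate 2 through day 7 and day 8 to day 10 were 2.60, 5.01, 8.73 and 11.1 CPM for Dpf1. They were 15.6, 20.7, 25.2 and 42.5 CPM for Smarca2 and 55.3, 50.1, 44.8 and 39.7 CPM for Phf10 (all without TMM scaling). These 3 genes kept 1 direction from each day to the next inside that class, while Actl6a there stood at 170.4, 179, 205 and 199 CPM.

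Neurons and progenitors of the same library differed most in Actl6b. At day 8 neurons held 35.8 CPM (95% exact Poisson interval 31.5 to 40.5, 250 UMIs) against 0.745 CPM in progenitors, a 48.0-fold higher level (interval 37.0 to 63.0). At day 10 neurons held 66.9 CPM (63.7 to 70.2, 1684 UMIs) against 2.56 CPM, a 26.1-fold higher level (21.9 to 31.4). These ratios compare clusters of 1 library with each other, they have no replicate, and their intervals cover counting error only, so no test was made. Without the dP1 and dP2/3 cells among the progenitors the Actl6b ratio was 67.6 at day 8 and 34.3 at day 10.

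Counting a ratio of at least 1.5 as higher or lower, 3 of the 10 members were higher and 3 lower in neurons at day 8, and 4 were higher and 2 lower at day 10. Over all genes with enough UMIs, 28.6% were higher and 26.6% lower at day 8, and 30.1% higher and 23.9% lower at day 10. Actl6a stood at 105 CPM in neurons and 207 in progenitors at day 8 (ratio 0.508, 0.471 to 0.547) and at 98.8 and 188 CPM at day 10 (ratio 0.525, 0.502 to 0.549). It was thus lower in neurons than in progenitors at both days and still had more UMIs in neurons than Actl6b. Dpf3 stood at 21.8 CPM in neurons and 4.62 in progenitors at day 8 (ratio 4.71, 3.90 to 5.67) and at 23.6 and 3.36 CPM at day 10 (ratio 7.04, 5.94 to 8.39). Ss18l1 stood at 10.3 and 4.06 CPM at day 8 (ratio 2.54, 1.95 to 3.27) and at 18.5 and 5.39 CPM at day 10 (ratio 3.43, 2.95 to 3.99).

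Dpf1 stood on opposite sides on the 2 days. In day 8 neurons it was at 4.58 CPM (32 UMIs) against 9.03 in progenitors (ratio 0.507, 0.345 to 0.722). In day 10 neurons it was at 24.9 CPM (628 UMIs) against 10.3 (ratio 2.43, 2.16 to 2.73). The intervals of Dpf3 in neurons overlapped between the 2 days (18.4 to 25.5 CPM at day 8 and 21.8 to 25.6 at day 10), while those of Dpf1 did not (upper bound 6.47 CPM at day 8, lower bound 23.0 at day 10).

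The other progenitor subunits were lower in neurons by smaller ratios. Ss18 had ratios of 0.733 (0.646 to 0.829) at day 8 and 0.605 (0.556 to 0.657) at day 10, Phf10 of 0.619 (0.532 to 0.717) and 0.791 (0.726 to 0.862), and Dpf2 of 0.820 (0.736 to 0.912) and 0.768 (0.717 to 0.823). The ATPases did not follow the same order. Smarca4 was slightly higher in neurons, with ratios of 1.12 and 1.24, and Smarca2 was lower, with ratios of 0.774 (0.638 to 0.931) and 0.727 (0.667 to 0.791). Median depth was 24479 UMIs per neuron and 31990 per progenitor at day 8, and 19948 and 22492 at day 10. With every cell thinned to 5000 UMIs, the Actl6b ratio at day 8 was 34.3 and the Dpf2 ratio 0.940. The thinned Actl6a ratio was 0.459 at day 8, below its interval from all UMIs, and 0.615 at day 10, above it. It stayed below 1 on both days. The Actl6b, Dpf2 and Smarca4 ratios at day 8 also moved outside their intervals from all UMIs. The remaining thinned member ratios stayed inside theirs.

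**Figure D2:**
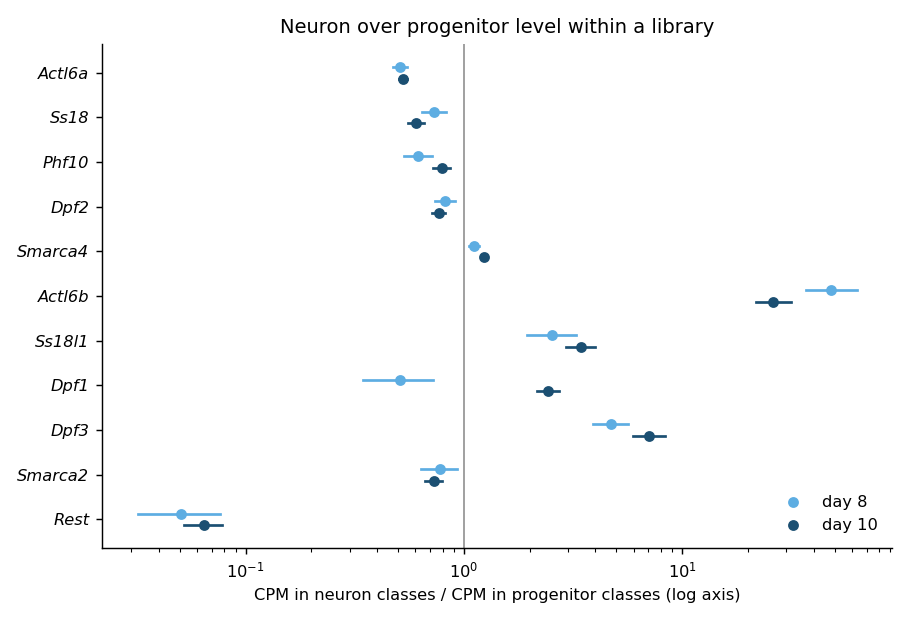
Level in neuron classes divided by level in progenitor classes of the same library (log axis) at day 8 (light) and day 10 (dark), with 95% intervals that cover counting error only. Actl6b lies farthest to the right (48.0 and 26.1), Dpf1 crosses 1 between the days (0.507 and 2.43), and Rest, the repressor, lies farthest to the left (0.051 and 0.064).

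The location of the UMIs gives the same contrast from the side of the gene. Neurons held 28.0% of all UMIs at day 10. They held 92.2% of the UMIs of Actl6b, 72.4% of those of Dpf3, 58.3% of those of Ss18l1 and 52.1% of those of Dpf1. For Actl6a, Ss18, Smarca2, Dpf2, Phf10 and Smarca4 the share was 17.7%, 19.4%, 20.6%, 23.3%, 23.5% and 33.3%, in order. At day 8 neurons held 6.03% of all UMIs and 76.0% of those of Actl6b.

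Within each group of related subunits, the share of UMIs taken by the neuronal member describes the balance of their transcripts. Which proteins the complex held was not measured. Capture can differ between genes, so such shares can be compared between classes, but they are not ratios of molecules. In neurons Actl6b took 25.4% of the UMIs of the Actl6 pair at day 8 (95% exact binomial interval 22.7 to 28.3) and 40.4% at day 10 (38.9 to 41.9), against 0.359% and 1.34% in progenitors. Ss18l1 took 21.1% of its pair (16.9 to 25.8) and then 38.8% (36.0 to 41.6), against 7.17% and 10.1% in progenitors. Dpf1 and Dpf3 together took 25.2% of the UMIs of the 4 PHF-finger genes (22.1 to 28.6) and then 39.5% (37.7 to 41.2), against 11.4% and 12.4% in progenitors. In all of these 3 groups the day 10 interval of neurons lay above the day 8 interval, and in none had the neuronal members reached 50% of the UMIs in the neuron classes as a whole. Thinned to 5000 UMIs a cell, the shares in day 10 neurons were 36.5% for Actl6b and in day 8 neurons 29.6% for Dpf1 and Dpf3 and 16.4% for Ss18l1.

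The Smarca pair had the opposite order. Smarca2 took 6.91% of the UMIs of its pair in neurons at day 8 (5.76 to 8.22) and 10.1% at day 10 (9.40 to 10.8), against 9.68% and 16.1% in progenitors. Its largest share at day 10 was in neural crest cells, 24.6% (23.1 to 26.2), where Smarca2 reached 57.0 CPM. In these crest cells the 11 neuron markers summed to 402 CPM, against 10957 in neurons, and Actl6b was at 0.763 CPM (10 UMIs). The 7 neural crest markers summed to 205 CPM in crest cells and 303 CPM in neurons, where Tfap2b alone gave 295 CPM; Sox10 was at 58.8 CPM in crest cells and 1.47 CPM in neurons. In progenitors of the day 6 libraries the Smarca2 share was 6.74% in the non-elongated library, 5.97% in elongated replicate 1 and 11.3% in replicate 2, so the duplicates, from different batches and tables, differed nearly as much as day 8 and day 10.

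**Figure D3:**
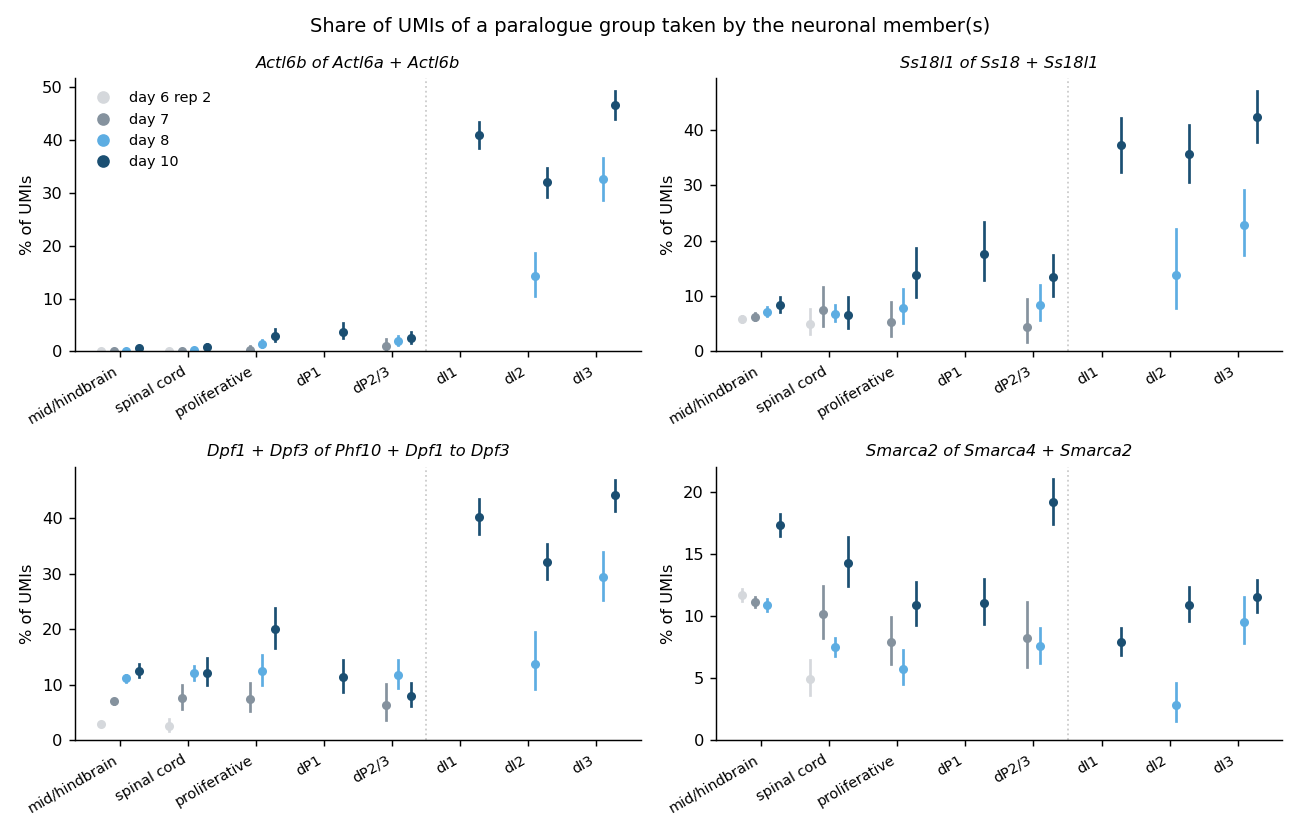
Percent of the UMIs of a group of related subunits taken by the neuronal members, or by Smarca2 in the Smarca pair. Points are progenitor and neuron classes with at least 50 cells, by day (shade), with 95% binomial intervals. The dotted line separates progenitor classes from the neuron classes dI1, dI2 and dI3. For Actl6b, Ss18l1 and the pair Dpf1 and Dpf3 the neuron classes at day 10 lie above all progenitor classes, whereas for Smarca2 the highest of the points drawn is dP2/3 at day 10.

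Single neurons mostly held UMIs of both Actl6 genes. Of 1176 neurons at day 10, 766 (65.1%, 62.3 to 67.9) had a UMI of Actl6b, 1010 (85.9%) had one of Actl6a, 654 (55.6%) had both, 112 had Actl6b alone and 54 had neither. Independent detection of the genes in these cells would put 55.9% in the class with both, close to the share found. Thinned to 5000 UMIs a cell, 25.9% had Actl6b, 43.1% Actl6a and 9.95% both, with 11.1% for independent detection. Of 2085 progenitors 5.42% had a UMI of Actl6b (1.25% thinned), and of 416 neural crest cells, which serve as the background, 1.92% (0 of 416 thinned, upper bound 0.883%). Median depths were 19948, 22492 and 28920 UMIs in neurons, progenitors and crest cells. At day 8, 54.8% of 272 neurons had a UMI of Actl6b (15.4% thinned), against 2.33% of progenitors and 1.97% of crest cells.

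Ordering the neural cells of 1 library by the summed level of the 11 neuron markers, none of which is a member, and cutting them into 10 equal bins gave their levels along that scale. At day 10 Actl6b was at 0.549, 0.761, 0.942, 1.36, 1.86, 5.64, 25.5, 54.3, 76.6 and 88.7 CPM from bin 1 to bin 10. Actl6a was at 198 CPM in bin 1 and 172 in bin 6, then at 139, 104, 95.2 and 87.1 in bins 7 to 10. Actl6b thus lay above Actl6a only in the last bin, where their intervals overlap. Between bins 6 and 7, the share of cells of the neuron classes went from 7.98% to 55.5% and proliferation markers from 1232 to 750 CPM.

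Dpf3 and Ss18l1 were higher in later bins together with Actl6b, Dpf3 from 3.56 CPM in bin 6 through 17.9 in bin 8 to 31.8 in bin 10, and Ss18l1 from 7.57 through 16.6 to 21.9 CPM. Dpf1 dipped first, at 11.3 CPM in bin 5, 6.83 in bin 6, 12.3 in bin 7 and 32.7 in bin 10. Phf10 had its lowest value in the same bin as the dip of Dpf1, with 42.5 CPM in bin 1, 24.2 in bin 6 and 27.9 in bin 10. Dpf2 had its highest value there, with 58.2, 66.7 and 42.3 CPM in bins 1, 6 and 10. That bin was made up of dP1 and dP2/3 cells to 74.2%. Smarca4 went from 183 to 267 CPM along the scale and Ss18 from 52.1 to 29.7.

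At day 8 the levels of most members differed in the last 2 bins. Actl6a lay between 202 and 211 CPM in bins 1 to 9 and at 122 in bin 10, and Actl6b at 0.677 CPM or less through bin 8, 3.71 in bin 9 and 31.6 in bin 10. Dpf3 was at 5.32 CPM in bin 8 and 19.1 in bin 10, and Ss18l1 at 4.54 and 9.72. Phf10 was lower 1 bin earlier than Actl6a, with 38.6 CPM in bin 8, 28.3 in bin 9 and 28.0 in bin 10. Dpf1 was at 7.84 to 8.91 CPM in bins 1 to 5, 13.4 in bin 6, 10.3 in bin 7 and 8.99 in bin 8. It was at 5.85 CPM in bin 9 and 5.28 in bin 10, with no higher level among the cells richest in neuron genes. Bin 9 was 51.9% dP1 and dP2/3 cells and bin 10 was 78.0% neurons.

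**Figure D4:**
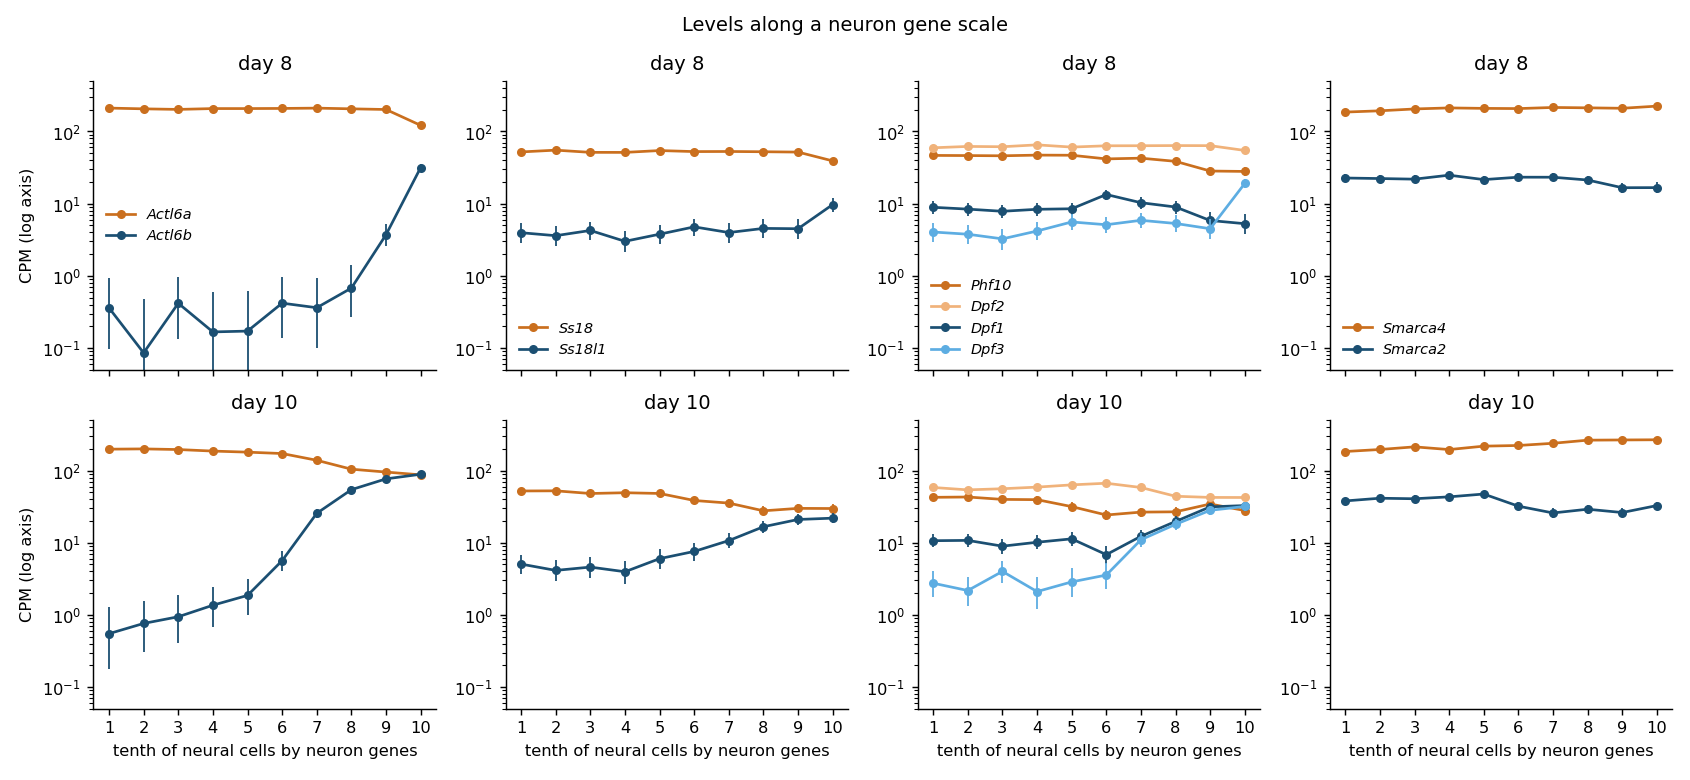
Level (CPM, log axis) of the members in 10 equal bins of neural cells ordered by summed neuron marker level, at day 8 (top row) and day 10 (bottom row), with 95% Poisson intervals; each column holds 1 group of related subunits. Actl6a and Actl6b meet in the last bin at day 10 (87.1 and 88.7 CPM) and stay apart at day 8 (122 and 31.6 CPM).

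The neuron classes differed among themselves, with the highest neuronal subunit levels in dI3. At day 10 Actl6b was at 77.3 CPM in dI3, 69.2 in dI1 and 51.5 in dI2, and Dpf1 at 32.9, 25.6 and 14.5 CPM. Actl6a had the reverse order, 88.5, 100.0 and 109.6 CPM. Dpf3 was at 28.8 CPM in dI3, 18.7 in dI1 and 23.6 in dI2, and Ss18l1 at 22.5, 15.8 and 16.9. At day 8, dI3 (140 cells) held 44.5 CPM of Actl6b, 30.0 of Dpf3 and 24.3 of Smarca2, and dI2 (98 cells) held 21.0, 8.11 and 6.68. A UMI of Actl6b was found in 70.7% of dI3 cells and 29.6% of dI2 cells at day 8, at median depths of 27383 and 20175 UMIs, and in 20.0% and 9.18% after thinning. These are values of 1 library each, and the classes were not tested against each other.

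Among the progenitor classes of day 10 the highest levels of Actl6b were in proliferative progenitors (6.57 CPM, a UMI in 14.6% of 158 cells), dP1 (5.81 CPM, 10.4% of 270 cells) and dP2/3 (3.61 CPM). They were lower in spinal cord (1.53 CPM) and mid/hindbrain (1.31 CPM, 3.19% of 1035 cells), beside 0.487 to 1.31 CPM in the crest classes. Actl6a was highest in proliferative progenitors (216 CPM), spinal cord (202) and mid/hindbrain (199), and lower in dP1 (149) and dP2/3 (141). Dpf1 was lower in dP1 (4.26 CPM) and dP2/3 (6.07) than in mid/hindbrain (11.1), spinal cord (11.6) and proliferative progenitors (16.6). Smarca2 was highest in pre-EMT cranial neural crest (70.4 CPM), followed by dP2/3 (51.4) and mid/hindbrain (42.5), with dI1 lowest (21.7). At day 6, in the epiblast, mesenchyme and surface ectoderm classes of the first table with at least 50 cells, Dpf3 was at 0 to 1.55 CPM and Dpf1 at 1.98 to 5.98 CPM.

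Over 27 combinations of library and class, which share libraries and depth, the levels of the members on a log2(CPM + 1) scale were compared as a description. Actl6b went with Ss18l1 (Pearson r = 0.92) and Dpf3 (0.85) and against Actl6a (-0.77), and Ss18 went against Ss18l1 (-0.87). With the remaining members, r of Actl6b was 0.77 for Smarca4, 0.53 for Dpf1, 0.07 for Smarca2, -0.57 for Dpf2, -0.69 for Phf10 and -0.84 for Ss18. Among 8581 genes those most like Actl6b included Mllt11 (0.985), Nacad (0.981), Rab3a (0.978) and Atcay (0.978). The 5 most like Actl6a were Srsf1 (0.959), Ssb (0.955), Nmral1 (0.955), Snrpb (0.948) and Supt16 (0.946). Rab3a encodes a small GTPase of synaptic vesicles and Srsf1 a splicing factor.

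Of 21 other subunits of BAF and related complexes, 6 rose and 1 fell by day 10 in all cells. Their median log2 difference was 0.50, and 26.4% of all genes were called. The largest differences were in Bcl11a and Bcl11b, zinc-finger subunits also known as neuronal transcription factors (log2 8.05 and 7.39), followed by Smarcd3 (2.26), Bcl7a (1.86), Smarcc2 (1.78) and Brd9 (0.93). Smarcd2 fell by 1.60. At day 8 Smarcd3, Bcl11a and Bcl7a rose and Smarcd2 fell, and at day 7 none was called. In progenitors at day 10 Smarcd3, Bcl7a, Smarcc2, Bcl11a and Bcl11b rose and Smarcd2 fell by 2.11. Within day 10 cells, Smarcd2 was 3.09-fold higher in neurons than in progenitors although it fell in both sums over day, and Smarcd3, which rose, was lower in neurons (ratio 0.527).

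The repressor Rest was far lower in neurons than in progenitors. It stood at 65.0 CPM in progenitors and 3.29 CPM (2.09 to 4.94) in neurons at day 8 and at 63.7 and 4.09 CPM (3.34 to 4.96) at day 10. It was 31.6 CPM in dP1, 43.5 in dP2/3 and 78.0 in mid/hindbrain at day 10. In all cells its log2 difference at day 10 was -0.54 (SE 0.27, adjusted p = 0.179) and in progenitors -0.15 (SE 0.27, adjusted p = 0.740). C130071C03Rik, a long noncoding transcript that contains Mir9-2, was at 0.014 to 0.087 CPM in the day 6 libraries, 0.289 at day 7, 35.3 at day 8 and 97.6 at day 10. Mir9-3hg, the host of Mir9-3, was at 0.43 to 1.83 CPM through day 8 and 43.8 at day 10. Both were lower in neurons than in progenitors at day 10, C130071C03Rik at 17.8 against 171 CPM and Mir9-3hg at 15.4 against 70.8 CPM. These are polyadenylated host transcripts, and the mature microRNA was not measured.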

How the data were processed

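UMI counts per gene and cell were the authors' deposited counts, whole numbers with no normalization. Cell Ranger 3.1 and mm10 are named in the submitters' processing notes, and the filters on cells and genes are not given in the sources used here. The authors also deposited each cell's UMI and gene counts, its percent of mitochondrial UMIs (not used for any result) and its class, and the class and library names (other, text) are theirs. The library names NENT and SENT were read as non-elongated and elongated from their initials. The sum of each cell's counts matched its deposited total. Doublets were not called here. The 10 members and all lists were chosen with earlier results of these data known.

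Counts were summed per library over all cells or over progenitor classes and tested with edgeR 4.0.16 (quasi-likelihood, TMM, filterByExpr with a minimum count of 10, Benjamini-Hochberg threshold 0.05; R 4.3.3) over 17296 genes shared by both tables. One fit held 5 group means and another a slope over day. Alternatives were DESeq2 1.42.0, other scalings and filters, and left-out libraries. The edgeR fits were also run on simulated counts. These had less spread between libraries than was fitted to the data (common dispersion 0.0872 in all cells and 0.0894 in progenitors), so that run lends no support to the calls. Classes, shares (Clopper-Pearson intervals) and bins were described within a library, in CPM of all UMIs; ratios carry exact conditional binomial intervals. Named genes were the members, other subunits that were called or extreme, Rest, and the 5 genes most correlated with Actl6a and Actl6b among those reaching 20 CPM (1 of these is not reported here); the miR-9 hosts, Mir9-3hg and C130071C03Rik, and the RE1 letters were added after values were seen. Whether the libraries are separate cultures is not stated, so p-values measure only the spread between these libraries. Sequences came from RefSeq tables (GRCm38.p6) and GENCODE M21.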

Additional observations from a re-analysis of the deposited data

Results flagged for a closer look

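The ratio of neuron to progenitor level changed side between day 8 and day 10 for 2 genes, with counting intervals that exclude 1 on opposite sides on the 2 days. Dpf1 was at a ratio of 0.507 at day 8 and 2.43 at day 10. Bcl7a, a small subunit of the core complex, was at 1.64 at day 8 and 0.856 at day 10. With 1 library a day the difference between the days was not tested. The neurons of day 8 held 32 UMIs of Dpf1.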

How the results depend on the processing

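Counts of called members stayed within 1.5 times the main count under most settings. In the group fits those at day 7 did not: the 1 member called in all cells went to 0 with a minimum count of 100, and the 1 called in progenitors went to 0 with library size alone, with no filter on low counts and with a minimum count of 100. Leaving out each elongated library in turn, the slope called 0 to 4 members in all cells and 0 to 2 in progenitors. Over all genes these fits called 0 to 2971 and 0 to 2038. Over the 4 libraries of the second table, with any of them left out, it called 0 members and 0 to 33 genes. In progenitors the slope called 0 members in that table alone and 0 in mid/hindbrain alone, where 0 of 16350 and 0 of 15763 genes were called. Thinned to 5000 UMIs, some shares of the neuronal members and of Smarca2 moved beyond their counting intervals. In day 8 neurons these were Ss18l1 16.4%, Smarca2 5.29% and the Dpf genes 29.6%. In day 8 progenitors they were Actl6b 0.508%, Ss18l1 6.19%, Smarca2 9.22% and the Dpf genes 12.6%. In day 10 neurons they were Actl6b 36.5% and Smarca2 11.1%. Signs turned only for values that were not called: Dpf2 at day 7 with library size alone (0.020), Actl6a at day 8 under DESeq2's size factors in edgeR (-0.015), a minimum count of 100 (-0.0084) and DESeq2 (-0.015), the slope of Actl6a in the second table without day 10 (0.026), Actl6a in day 10 progenitors with library size alone (0.063), and its progenitor slope with library size alone (0.026), without day 10 (0.014, the others left out in turn giving negative values down to -0.031), without dP1 and dP2/3 (0.0069) and in mid/hindbrain alone (0.016). The cause was not tested. Against each of the day 6 duplicates alone, 28 of 28 called member values kept their sign. These values had been called against the mean of the same duplicates. A turned sign was therefore unlikely from the start, and the count lends no support. Library size scaling split the day 10 calls 2991 higher and 1382 lower, against 2302 and 2018 with TMM, and called 4 members higher and 0 lower. DESeq2 called 3 members higher and 1 lower, with 1936 genes higher and 2193 lower of 14473. In progenitors it called 3 higher and 1 lower, with 1249 genes higher and 1447 lower of 13646. There edgeR called 3 and 0, with 1397 genes higher and 1301 lower of 15789. The second-table, mid/hindbrain and dP-free slopes were chosen after seeing the data. No paired analysis was possible because the groups compared share fewer than 2 replicate numbers. Low counts limit Dpf3 in the day 6 libraries (27 to 112 UMIs) and Actl6b before day 8 (9 and 31 UMIs), where a few UMIs move the level. The day 6 and day 7 libraries were deeper per cell than the day 10 library.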
